A study of Vitis rotundifolia with 36 samples.

Results

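The comparison described here set layer 2 of the thick-skinned muscadine cultivar Alachua against layer 2 of the thin-skinned cultivar Supreme. Both cultivars bear purple fruit, so the pair differs in skin thickness and not in berry colour as the labels give it. Its members were chosen by sample title and are 6 of the 36 libraries of the study, 3 for each cultivar. Ripe berries of Vitis rotundifolia had been cut into 4 layers before their messenger RNA was sequenced, and the values are read counts per gene model. The protocol lists the layers from the outside in as epidermis with cuticle, hypodermis, mesocarp and endocarp, so layer 2 is the hypodermis by that order, while its own labels call the material peel and exocarp. Layers 1, 3 and 4 of Alachua and Supreme, with 3 libraries each, and layer 2 of the green-fruited cultivar Granny Val, of intermediate thickness, are used for reference. The labels name no treatment of the plants or fruit that differed between groups. Each cultivar is 1 genotype grown at 1 site, so skin thickness cannot be told apart from anything else that differs between Alachua and Supreme. Separate vines or fruit for the replicates are not stated, and p-values measure the spread between these libraries, which may be technical.

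The skin of a grape berry is made of an epidermis coated with cuticle and wax and, beneath it, a hypodermis of several layers of thick-walled cells. The hypodermis carries much of the mechanical strength of the skin, through cellulose, hemicelluloses and pectins in its walls, and in purple fruit its vacuoles store anthocyanin pigments. Muscadine berries are known for a tough, leathery skin that slips from the pulp. The deposited identifiers give a chromosome and a running number and are not paired with gene names or products, so no gene model below can be assigned to cuticle, wall or pigment metabolism, and no named marker of hypodermis could be checked. In bulk tissue, fewer cells of a type and less RNA per cell cannot be told apart.

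The labelled layer was checked with sets of gene models that differ between the layers of Granny Val, namely 307 that were higher in layer 1 than in every other layer and 168 that were higher in layers 3 and 4 than in layers 1 and 2. Each library was scored by its mean log2 CPM over a set (CPM is the count scaled by library size), less the Granny Val mean. The Granny Val means on the layer 1 and inner scores were -0.49 and -2.65 for layer 2, 3.64 and -3.34 for layer 1, and -1.58 and 3.00 for the inner layers. Alachua layer 2 replicate 1 had scores of -0.14 and -1.96 and replicate 2 had -1.31 and -2.63, both nearest to layer 2. Alachua replicate 3 had -1.85 and 1.35, nearest to the inner layers. Supreme replicate 1 had 3.46 and -3.71, nearest to layer 1, whereas replicate 2 had 0.0021 and -2.67 and replicate 3 had -0.46 and -2.63. Each cultivar therefore has 1 library of the 3 that stands apart on these scores, and they depart in opposite directions along the depth of the berry. Supreme layer 1 replicate 1, with scores of 0.11 and -3.12, in turn lay nearest to layer 2. Among the libraries used for reference, Alachua layer 3 replicate 1 lay nearest to layer 1 (2.39 and -3.66), and Alachua layer 4 replicates 2 (-1.06 and -2.78) and 3 (-1.002 and -3.061) lay nearest to layer 2, so 2 of the 3 Alachua libraries labelled layer 4 resemble layer 2. In all, 6 libraries of Alachua and Supreme lay nearest another layer. The layer 2 libraries held between 36734979 and 49005540 counts in Alachua and between 33608670 and 49024359 in Supreme.

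**Figure D1:**
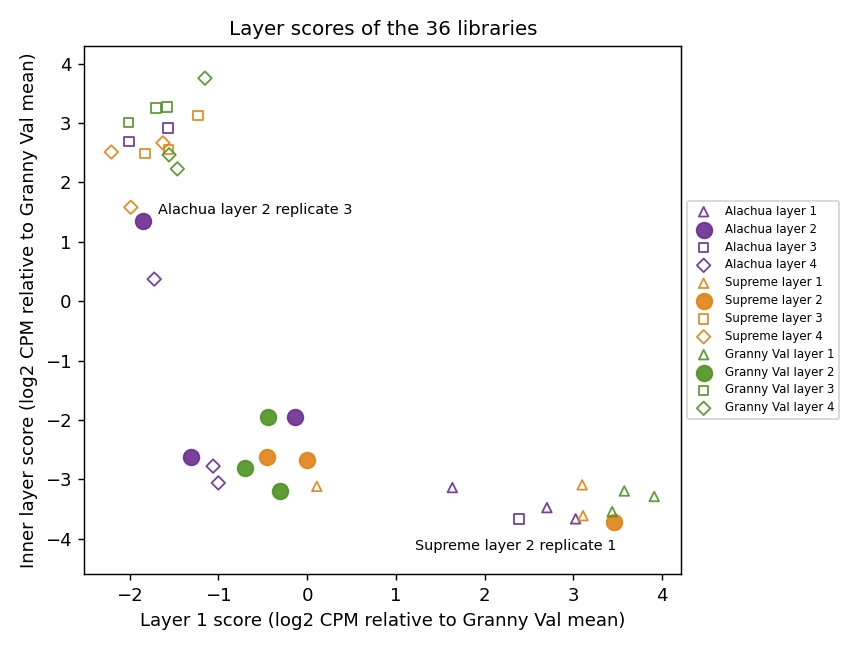
Layer 1 score (x axis) and inner layer score (y axis) of the 36 libraries, both in log2 CPM relative to the Granny Val mean; colour gives the cultivar, marker shape the layer, and filled circles are layer 2. Alachua layer 2 replicate 3, at -1.85 and 1.35, sits with the inner layers, and Supreme layer 2 replicate 1, at 3.46 and -3.71, sits with layer 1.

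With all libraries, 175 of the 19241 gene models tested differed between Alachua and Supreme in layer 2 (0.910%), by an adjusted p under 0.05 and a change of at least 2-fold. In Alachua, 81 were higher (0.421%) and 94 were lower (0.489%). Without Alachua replicate 3 and Supreme replicate 1, 42 of 19727 were called (0.213%), of which 25 were higher (0.127%) and 17 were lower (0.0862%). The lists shared 41 gene models, 25 higher and 16 lower in Alachua, which is 23.4% of the 175 and 97.6% of the 42. The calls were made on these same values, so their sizes are a description. For the shared gene models the median absolute log2 fold change was 7.87, against 3.77 for all 175 and 0.54 for all gene models tested. A median that counts gene models with no read in the lower group at their lower bound was 7.69 for the 25 higher ones and -6.45 for the 16 lower ones. Changes over 8-fold made up 21 of the 25 and 13 of the 16.

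The 134 gene models called only with all libraries kept their direction without the 2 libraries, in 134 of 134, and 125 were still changed by at least 2-fold. Their median adjusted p was then 0.229, and their median absolute log2 fold change was 2.42 without and 2.68 with both libraries. In 81 of the 134 the highest library of the higher group was one of the 2, as it was in 17 of the 41. A share of 1 in 3 would arise if each of the 3 libraries of a group were equally likely to be highest. The share over all gene models tested was not computed. The 134 were defined by the loss of their call without these 2 libraries, so the counts of 81 and 17 follow in part from that definition. Members of the layer sets were also counted among the 134. The 2 libraries stand apart on scores over these same sets, so the counts are a description and not separate evidence. Of the 134, 8 belonged to the layer 1 set, which is 5.97% against 1.60% of all gene models tested, and 4 belonged to the inner set, which is 2.99% against 0.873%. All 8 were lower in Alachua and all 4 were higher. Of the 41, 0 belonged to either set, which is not unusual for so short a list at shares of 1.60% and 0.873%. The part that these 2 libraries play in the 134 calls was not tested beyond leaving them out, and the fits with fewer libraries made fewer calls in general. There were 83 calls without Alachua replicate 2, which lies nearest its labelled layer, and 89 without Alachua replicate 3.

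The clearest differences were gene models read in one cultivar and not at all, or barely, in the other. One of them, higher in Alachua, was evm.model.chr16.1566, on chromosome 16, which ranked by its fitted fold, a value that depends on the prior count. It had 54.3, 42.1 and 56.3 CPM in Alachua, against 0 counts in each of the 3 Supreme libraries. The groups did not overlap, and Alachua was at least 2220-fold higher, relative to a floor of 3 counts over the summed Supreme libraries (adjusted p = 1.3e-09). Without the 2 libraries the bound was 1510-fold. Granny Val also had 0 counts in layer 2. Over all 4 layers the 12 Alachua libraries held 31077 counts, the 12 Supreme libraries 3 and the 12 Granny Val libraries 4, so the difference was found in every labelled layer.

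The same shape was seen for evm.model.chr5.2259, at 15.8, 17.9 and 4.94 CPM in Alachua, with Supreme at 0 counts (adjusted p = 0.000643). Its bound was 561-fold with all libraries and 528-fold without the 2, although Alachua replicate 3 was the lowest of its group. Granny Val had 0 counts of it in all 12 libraries and Supreme had 2, against 5794 in Alachua. Its call was lost when only the 6 libraries compared were fitted (adjusted p = 0.0646).

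Among those lower in Alachua, evm.model.chr6.1949 was at 0 counts in each Alachua layer 2 library, and at 42.9, 21.9 and 29.3 CPM in Supreme. It was at least 1330-fold lower in Alachua (adjusted p = 0.0016), and at least 679-fold lower without the 2 libraries. All 12 Alachua libraries had 0 counts of it. In Supreme it was higher in the skin layers than in the flesh, with a mean of 31.2 ± 9.71 CPM in layer 1, 31.4 ± 10.7 in layer 2, 2.99 ± 1.93 in layer 3 and 2.17 ± 0.738 in layer 4 (SD, n = 3 each). Granny Val had 14.8, 18.2 and 4.51 CPM in layer 2, on the side of Supreme.

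Also lower in Alachua was evm.model.chr3.1948, with 0, 0.0281 and 0 CPM there, a single count, and 97.7, 18.7 and 7.21 CPM in Supreme (adjusted p = 0.00081). The ratio of Supreme to Alachua was 4658, with a 95% counting interval of 836 to 184026. The 97.7 CPM came from the Supreme library that resembles layer 1, and without the 2 libraries the ratio was 1009 (181 to 39879). The single Alachua count came from replicate 2, without which Alachua was at 0. This gene model was highest in the outermost layer, at 4.15 ± 4.48 CPM in Alachua and 61.2 ± 27.6 CPM in Supreme. Within layer 1 the Supreme replicates had 29.4, 78.6 and 75.5 CPM, the lowest being the library that resembles layer 2. Its call was lost in 2 of 15 other fits, the 25 libraries with numbered names and the 6 libraries compared (adjusted p up to 0.0646).

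Among the abundant gene models, evm.model.chr13.1496 had 599, 521 and 621 CPM in Alachua, and 23.9, 42.2 and 39.3 CPM in Supreme. The libraries of the cultivars lay far apart with little spread within either, and the log2 fold change was 4.05 (SE 0.47, adjusted p = 5.6e-06). Its high level in Alachua held from skin to core, with means of 447, 581, 587 and 760 CPM in layers 1 to 4, against 30.7, 35.1, 35.9 and 44.7 CPM in Supreme. Granny Val had 46.9, 50.6 and 43.4 CPM in layer 2, close to Supreme. The other abundant gene model higher in Alachua, evm.model.chr1.1893, had 78.7, 136 and 116 CPM in Alachua and 0, 1.10 and 1.25 CPM in Supreme (log2 fold change 7.11, SE 1.18, adjusted p = 0.0011). Without the 2 libraries its log2 fold change was 6.49.

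Lower in Alachua among the abundant ones was evm.model.chr17.261, at 115, 19.5 and 76.7 CPM in Alachua and 498, 763 and 614 CPM in Supreme. The lowest Supreme library was above the highest Alachua library, with a log2 fold change of -3.15 (SE 0.48, adjusted p = 0.0005). The level of evm.model.chr2.328 was 1.16, 0.168 and 0.313 CPM in Alachua and 64.1, 502 and 261 CPM in Supreme (log2 fold change -8.96, SE 1.40, adjusted p = 0.00057). Its spread within Supreme was wide, at 276 ± 219 CPM (SD, n = 3). Single libraries moved its fold by over 1.5 times: the log2 value was -10.11 without Alachua replicate 1 and -8.20 without Supreme replicate 2. Granny Val stood with Supreme for both, at 623, 654 and 388 CPM for evm.model.chr17.261 and at 81.4, 230 and 285 CPM for evm.model.chr2.328. Both calls were lost in the fit of the 6 libraries alone, where 20 gene models were called in all and 10 of the 41 were among them.

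**Figure D2:**
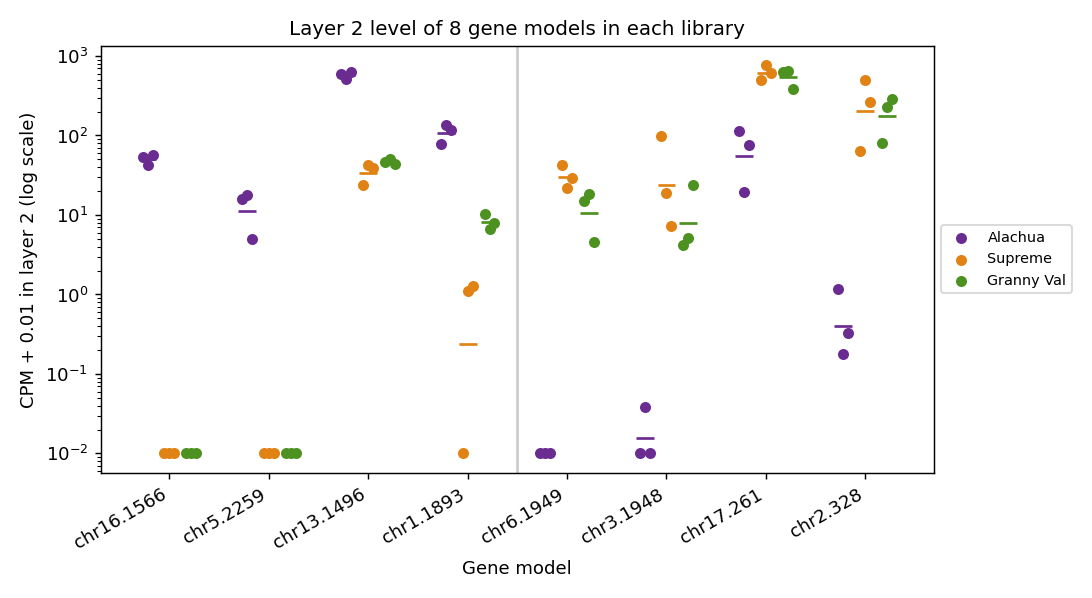
Layer 2 level of 8 gene models in each library, as CPM + 0.01 on a log axis, with 3 libraries per cultivar (points) and their geometric mean (bar); a point at 0.01 is a count of 0. The 4 on the left were higher in Alachua and the 4 on the right lower, and in each the Alachua and Supreme points do not overlap.

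Gene models with no count in layer 2 of one cultivar made up 38 of the 175. Of the 81 higher in Alachua, 20 had 0 counts over the 3 Supreme libraries, and of the 94 lower, 18 had 0 counts over the 3 Alachua libraries. The whole berry of the lower cultivar was at 0, over its 12 libraries, for 6 and 5 of these lists. Among the 41, layer 2 of the lower cultivar was at 0 for 9 of the 25 and 3 of the 16. A count of 0 in these tables shows that no read was assigned to that gene model. Absence of transcript, a gene missing from one cultivar and sequence that differs from the reference cannot be told apart from counts alone.

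Groups that do not overlap were common in layer 2 at large, at 10.2% of the gene models tested higher in Alachua and 9.19% lower. All 25 and all 16 of the shared gene models were of this kind, as were 81 of the 81 and 93 of the 94 called with all libraries. The rule for calls favours such separation, so these counts describe the lists and do not test them.

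The other layers of the same cultivars gave measurements that the selection of the 41 did not use as such, although all layers entered the fit and set its estimate of spread, and layers of 1 replicate number may share fruit. The cultivars differed in 85 gene models in layer 1 (0.442%; 49 higher, 0.255%, and 36 lower, 0.187%). In layer 3 they differed in 181 (0.941%; 120 higher, 0.624%, and 61 lower, 0.317%). In layer 4 they differed in 464 (2.41%; 223 higher, 1.16%, and 241 lower, 1.25%). Against these shares, 22, 21 and 22 of the 25 higher gene models were also called higher in layers 1, 3 and 4, and 10, 13 and 15 of the 16 lower ones were also called lower. All 3 other layers gave the same call for 18 of the 25 and 10 of the 16, and 0 of the 41 were called in layer 2 alone. The sign was the same in each layer for 25 of 25 and 16 of 16.

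Their size in the other layers is given for each direction, and the directions were not tested against each other. Selection on layer 2 favours larger values in that layer. The median log2 fold change of the 25 was 7.84 in layer 1, 7.48 in layer 3 and 7.81 in layer 4, with gene models at 0 counts taken at their bound, while that of all gene models tested was 0.00, 0.03 and -0.09. For the 16 lower in Alachua the medians were -4.15, -4.85 and -6.34, nearer 0 in layers 1 and 3 than the -6.45 of layer 2. Single gene models departed further, such as evm.model.chr20.527, with a log2 fold change of 6.83 in layer 2 and 0.88 in layer 3, and evm.model.chr6.655, with 2.92 in layer 2 and 0.30 in layer 4. Over layers 1, 3 and 4 together, the 9 Alachua libraries did not overlap the 9 Supreme libraries for 20 of the 25 and 13 of the 16. Over all gene models tested, 0.457% were separated in that way with Alachua higher and 0.598% with Alachua lower. For 28 of the 41, the same call was thus made in each set of libraries as labelled. Without the 6 libraries nearest another layer, which leaves a single Alachua library in layer 4 that is assumed to vary like the other groups, the same call was made in layers 1, 3 and 4 for 32, 32 and 27 of the 41 and in all of them for 22, each of which is among the 28. In that fit 0.502%, 0.614% and 0.468% of the gene models tested were called in layers 1, 3 and 4, and the sign was the same for 41, 41 and 40 of the 41.

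**Figure D3:**
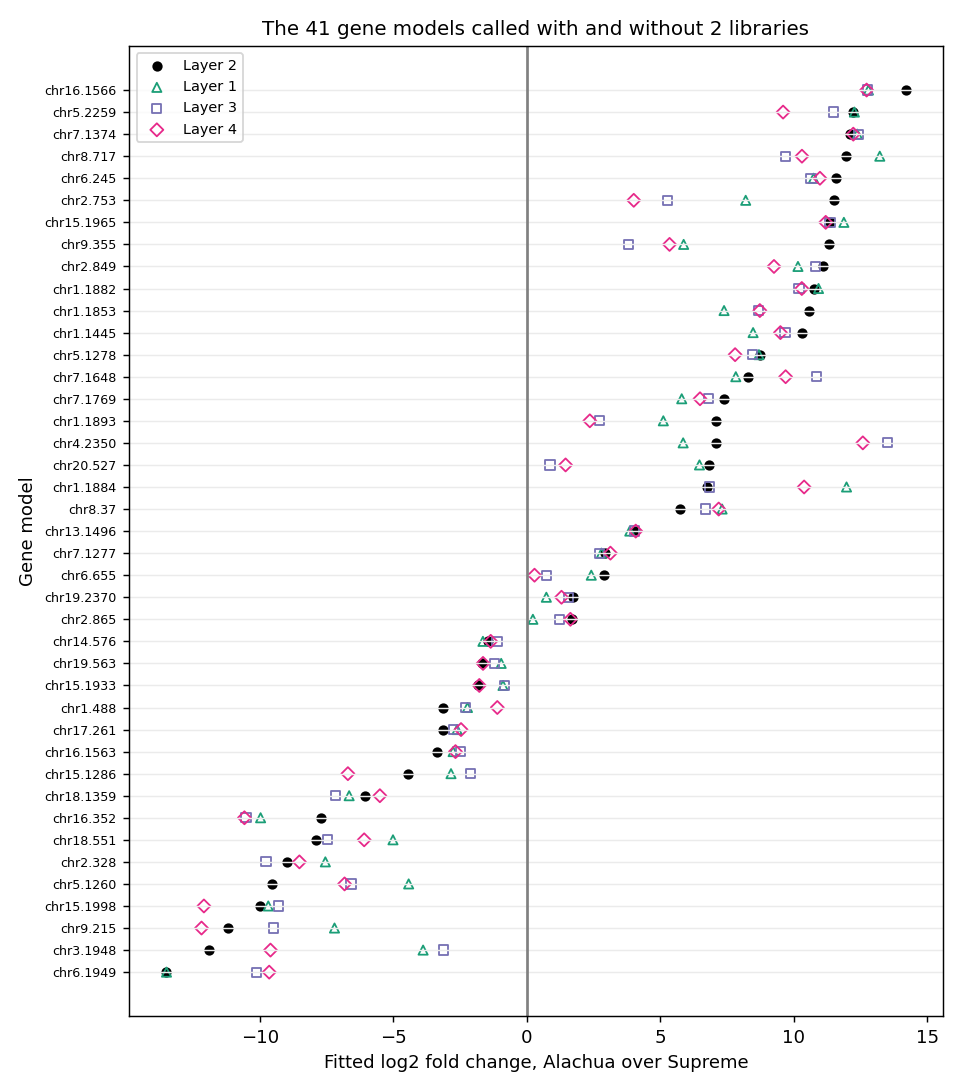
Fitted log2 fold change of Alachua over Supreme (x axis) in each layer for the 41 gene models (y axis) called in layer 2 with and without Alachua replicate 3 and Supreme replicate 1. The markers of layers 1, 3 and 4 fall on the same side of 0 as layer 2 for each of the 41; values of gene models with 0 counts in a group depend on the prior count and are not bounds.

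The other layers were also read for the calls made only with all libraries, and whether these were repeated at another rate than the 41 was not tested. Of the 56 higher ones not shared, 15, 16 and 21 were called higher in layers 1, 3 and 4, and of the 78 lower ones 14, 15 and 35 were called lower. In all, 31 of the 81 and 35 of the 94 were called in no other layer. Being called in layer 2 and not elsewhere does not show that the difference was larger there, and the difference itself was tested.

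The contrast of Alachua with Supreme in layer 2 was set against the mean of the same contrast over layers 1, 3 and 4. With edgeR, 0 of 19241 gene models were called (0%), the smallest adjusted p being 0.213. At an unadjusted p under 0.05 there were 2187 gene models, 11.4% of those tested, and DESeq2 called 767. Without the 2 libraries edgeR again called 0. An unadjusted p under 0.05 was then found for 587 of 19727 gene models, a smaller share than that threshold would give with no differences. Of the 41, 10 had an unadjusted p under 0.05 in this contrast with all libraries. For some gene models with 0 counts in a group, several of the 41 among them, edgeR could not estimate the contrast. No difference could be called for these, and they remain in the totals of 41 and 19241. In evm.model.chr3.1948 the difference was -6.38 log2 units with SE 17329 (unadjusted p = 0.9997), and in evm.model.chr6.1949 it was -2.42 with SE 7447. The SE was 2276 for evm.model.chr5.2259 and 546 for evm.model.chr7.1374.

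The layer 2 contrast was the larger in 7 of those 10 and the smaller in 3. These gene models were selected on layer 2, which favours larger values in that layer, so the count of 7 is a description. The unadjusted p-values of those 7 carry the same bias. The 3 smaller ones were evm.model.chr4.2350, at a difference of -3.58 log2 units (unadjusted p = 0.030, adjusted p = 0.374), evm.model.chr1.1884, at -2.99 (unadjusted p = 0.014, adjusted p = 0.301), and evm.model.chr16.352, lower in Alachua, at 2.64 (unadjusted p = 0.023, adjusted p = 0.351). The last 2 depended on 1 library. Without Supreme replicate 1 the layer 2 log2 fold change of evm.model.chr1.1884 went from 6.75 to 12.03, against 11.98, 6.84 and 10.40 in layers 1, 3 and 4. Without Alachua replicate 1 that of evm.model.chr16.352 went from -7.71 to -10.12, against -9.97, -10.51 and -10.57. Some of the 7 shared a pattern in Supreme, a level near 0 in the outer layers and a clear level in the flesh. Granny Val also rose towards the flesh in some of them, and is given for each below. Alachua was high in each labelled layer. These gene models were chosen with their values in view. In layer 2, evm.model.chr2.753 had 117, 137 and 39.3 CPM in Alachua and 0, 0.0897 and 0 CPM in Supreme, 4 counts in all (log2 fold change 11.52, SE 1.23, adjusted p = 1.3e-06). That fold depends on single Supreme libraries, with a log2 value of 10.91 without replicate 3 and with Supreme at 0 counts without replicate 2. Over layers 1 to 4 its mean was 219, 97.7, 149 and 80.7 CPM in Alachua and 0.739, 0.0299, 3.82 and 5.00 CPM in Supreme. Granny Val, at 1.03, 0.458, 7.44 and 7.35 CPM, had the same pattern as Supreme. The layer 2 contrast exceeded that of the other layers by 5.69 log2 units (SE 1.17, unadjusted p = 4.3e-05, adjusted p = 0.213), or by 5.08 without Supreme replicate 3 (Supreme layer 2 is at 0 counts without replicate 2).

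Higher levels in the flesh of Supreme were seen for evm.model.chr20.527. Alachua layer 2 had 81.6, 182 and 39.4 CPM, and Supreme layer 2 had 0, 1.19 and 1.43 CPM (log2 fold change 6.83, SE 0.90, adjusted p = 5.1e-05). Without Alachua replicate 2, the highest, the log2 fold change was 6.09. Its means over layers 1 to 4 were 35.4, 101, 52.8 and 61.6 CPM in Alachua, against 0.390, 0.874, 28.7 and 22.4 CPM in Supreme. By labelled layer, Supreme thus neared Alachua in layers 3 and 4 and not in layers 1 and 2. Granny Val did not share this pattern, with means of 14.6, 45.3, 32.4 and 27.5 CPM over layers 1 to 4. The Alachua means of layers 3 and 4 include libraries that resemble the skin. Those are layer 3 replicate 1, nearest to layer 1, and layer 4 replicates 2 and 3, nearest to layer 2. The layer 2 contrast was larger than that of the other layers by 3.89 log2 units (SE 0.87, unadjusted p = 0.00012, adjusted p = 0.213), or by 3.16 without Alachua replicate 2.

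Weaker forms of it were found in evm.model.chr6.655 and evm.model.chr1.1893. The first had 8.72, 14.2 and 11.5 CPM in Alachua layer 2 and 1.28, 1.79 and 1.47 CPM in Supreme layer 2, while its Supreme means in layers 3 and 4 were 6.92 and 6.21 CPM. Its difference between layers was 1.77 log2 units (SE 0.46, adjusted p = 0.213). The second, given above for layer 2, had Supreme means of 0.799, 0.784, 8.51 and 22.5 CPM in layers 1 to 4 and a difference of 3.70 (SE 1.12, adjusted p = 0.219). Granny Val means of evm.model.chr1.1893 also rose inward, at 1.78, 8.25, 12.6 and 27.7 CPM, with a wide spread in layer 4 (SD 24.8, n = 3). For evm.model.chr6.655, Granny Val was lower in layer 1 only, at 9.88 CPM, against 19.5 CPM in layer 2 and 20.7 CPM in layer 3. None of these 4 gene models passed the threshold for a difference between layers in edgeR, and each did in DESeq2.

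**Figure D4:**
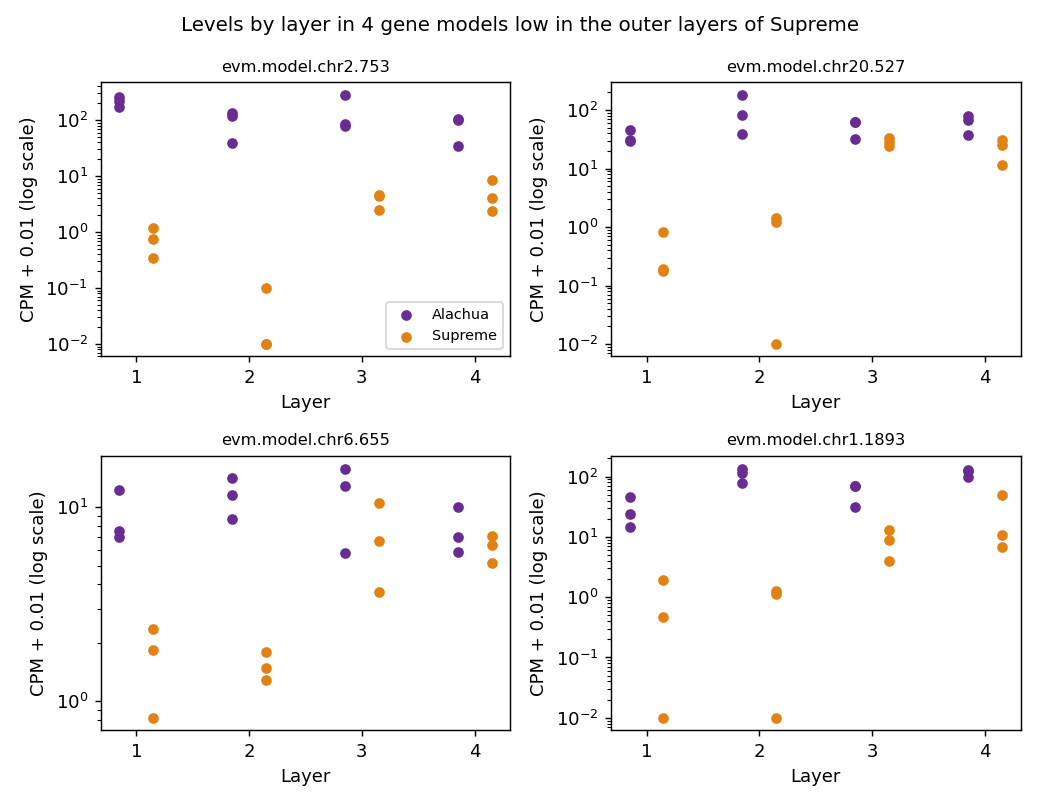
CPM + 0.01 (log axis) in layers 1 to 4 as labelled (x axis) for 4 gene models, with 3 libraries per cultivar and layer as points. A point at 0.01 is a count of 0. The Supreme libraries of layers 1 and 2 lie below those of layers 3 and 4 in each panel, and in layer 2 the Alachua libraries lie above every Supreme library of that layer.

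Granny Val gave another genotype, with skin of intermediate thickness, but with green fruit. For each gene model its layer 2 mean was placed between those of Supreme and Alachua on a log2(CPM + 0.1) scale, with 0 at Supreme and 1 at Alachua, and called near Supreme up to 0.25 and near Alachua above 0.75. Of the 41, 28 had Granny Val near Supreme, 10 near Alachua and 3 between. Among the 25 higher in Alachua, 9 were near Alachua, 14 near Supreme and 2 between, and among the 16 lower, 1 was near Alachua, 14 near Supreme and 1 between. Over all calls, the 81 higher gene models divided into 19 near Alachua, 39 near Supreme and 23 between, and the 94 lower ones into 11, 54 and 29. Gene models with Granny Val beyond either cultivar were counted as near that cultivar, so only the intermediate class had limits on both sides. Intermediate levels were the least frequent outcome for the 41, while over all calls they outnumbered levels near Alachua. No shares over all gene models tested were computed. These placements are descriptions with no test.

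The 1 gene model of the 16 for which Granny Val was near Alachua was evm.model.chr16.352, chosen with its values in view. It had 0.204, 0.0281 and 0 CPM in Alachua layer 2 and 9.04, 23.1 and 18.6 CPM in Supreme layer 2 (log2 fold change -7.71, SE 1.08, adjusted p = 0.00021). Over all layers the 12 Alachua libraries held 16 counts, the 12 Supreme libraries 13984 and the 12 Granny Val libraries 13, so it was read in Supreme and barely in the other cultivars. Without Alachua replicate 1, the highest of its group, the log2 fold change was -10.12, and without replicate 3 it was -7.13.

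Some gene models were higher in Granny Val than in either purple cultivar. The level of evm.model.chr7.1374, chosen after its values were seen, was 13.8, 12.8 and 9.25 CPM in Alachua layer 2, 0 counts in all 12 Supreme libraries, and 280, 358 and 139 CPM in Granny Val layer 2. Alachua was at least 520-fold higher than Supreme (adjusted p = 3.7e-09). A similar order held for evm.model.chr2.849, at 6.61, 6.82 and 4.31 CPM in Alachua, 0 counts in Supreme, and 34.5, 20.8 and 22.5 CPM in Granny Val, also chosen after its values were seen. It was at least 258-fold higher in Alachua than in Supreme (adjusted p = 1.7e-08).

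**Figure D5:**
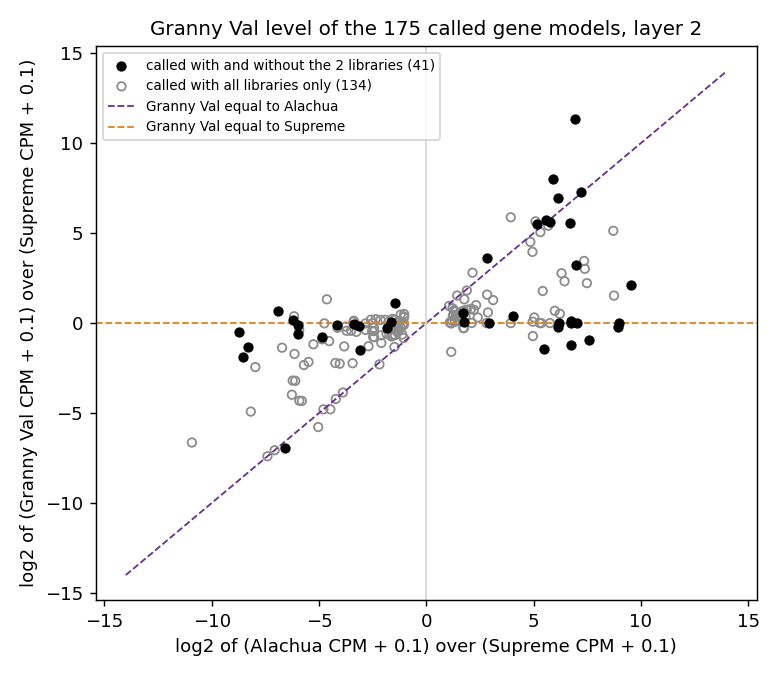
Layer 2 level of Granny Val relative to Supreme (y axis) against that of Alachua relative to Supreme (x axis), both as log2 of group mean CPM + 0.1, for the 175 gene models called; filled points are the 41 also called without the 2 libraries. Of the filled points, 28 lie near or beyond the horizontal line, where Granny Val equals Supreme, and 10 near or beyond the diagonal, where it equals Alachua.

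Several of the 41 carried nearby running numbers. The sources used here do not state whether the numbers follow position along a chromosome, and these groups were chosen after their values were seen. On chromosome 1, 4 of the 12 gene models tested from evm.model.chr1.1853 to evm.model.chr1.1893 were called, all higher in Alachua and all among the 41, where 0.910% of all gene models tested and 1.31% of those on chromosome 1 were called. Both ends of the stretch are called gene models, so part of that count follows from how the stretch was chosen. The level of evm.model.chr1.1853 was 15.0, 14.3 and 17.4 CPM in Alachua and 0, 0 and 0.0202 CPM in Supreme, a single count. Alachua exceeded Supreme by a ratio of 2051 (95% counting interval 368 to 81037, adjusted p = 3.8e-07), and by 1380 (247 to 54558) without the 2 libraries. Without Supreme replicate 3, which holds that count, Supreme was at 0. Granny Val, at 14.6, 16.0 and 19.0 CPM, was level with Alachua.

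Close to it, evm.model.chr1.1882 had 2.00, 5.16 and 7.02 CPM in Alachua, and all 12 Supreme libraries were at 0 counts. In layer 2 Alachua was at least 206-fold higher (adjusted p = 0.00055). The bound without the 2 libraries was 112-fold. The level of evm.model.chr1.1884 was 12.5, 8.89 and 12.7 CPM in Alachua and 0.328, 0 and 0 CPM in Supreme (log2 fold change 6.75, SE 1.09, adjusted p = 0.0010). Its only Supreme counts came from replicate 1, so without the 2 libraries Supreme was at 0 and the bound was 336-fold. Without Supreme replicate 3 the log2 fold change was 6.13. Granny Val was again with Alachua for both, at 2.63, 3.18 and 10.1 CPM and at 13.1, 12.9 and 5.05 CPM. The fourth, evm.model.chr1.1893, had Granny Val between the others, at 10.2, 6.70 and 7.88 CPM. Of the 8 not called, values were close in the cultivars for some, such as evm.model.chr1.1863 at a mean of 40.9 CPM in Alachua and 38.9 CPM in Supreme.

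On chromosome 16, evm.model.chr16.1566 had 2 called neighbours by number that went the other way. In evm.model.chr16.1563, layer 2 had 16.8, 18.8 and 7.23 CPM in Alachua and 204, 102 and 132 CPM in Supreme (log2 fold change -3.36, SE 0.43, adjusted p = 2.4e-05), with Granny Val at 101, 132 and 183 CPM. In evm.model.chr16.1557, it had 45.1, 36.3 and 49.6 CPM in Alachua and 113, 77.6 and 109 CPM in Supreme (log2 fold change -1.19, SE 0.25, adjusted p = 0.014). That call ended without the 2 libraries (adjusted p = 0.126) and without any 1 of Alachua replicates 1 and 2 and Supreme replicates 1 and 3 (adjusted p up to 0.124). These were the 3 gene models tested in that stretch, whose ends were likewise set by called ones.

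Calls were spread over the genome otherwise. They came to between 0.226% of the gene models tested on chromosome 12 and 1.99% on chromosome 15, where 8 were higher and 5 lower in Alachua. By abundance, taken as the higher of the 2 layer 2 means, 2 of 3405 gene models under 1 CPM were called (0.0587%), 36 of 5138 from 1 to 10 CPM (0.701%), 93 of 7863 from 10 to 100 CPM (1.18%) and 44 of 2182 above 100 CPM (2.02%). The other 653 had no count in layer 2 of either cultivar. Lower counts give less precise values, and the share called was higher in each next band. Of the 50 most abundant, each at 1782 CPM or more, 2 were called (4%), and both were higher in Alachua.

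Those were evm.model.chr3.1101, at 3250, 2580 and 2340 CPM in Alachua and 334, 867 and 726 CPM in Supreme (log2 fold change 2.09, SE 0.48, adjusted p = 0.0255), and evm.model.chr18.1432, at 2280, 2040 and 2750 CPM in Alachua and 383, 986 and 988 CPM in Supreme (log2 fold change 1.58, SE 0.36, adjusted p = 0.0249). These too were chosen with their values in view. In both the lowest library was the Supreme one that resembles layer 1. Neither was called without the 2 libraries (adjusted p = 0.306 for evm.model.chr3.1101 and 0.524 for evm.model.chr18.1432). The call of evm.model.chr3.1101 was lost without any 1 of the 6 libraries, and that of evm.model.chr18.1432 without any Alachua library or without Supreme replicate 1.

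The calls made with all libraries and not without the 2 included gene models with very large folds. In layer 2, evm.model.chr2.765 had 0.999, 1.85 and 126 CPM in Alachua, with Supreme at 0 counts. Alachua was at least 1870-fold higher (adjusted p = 0.0395). The value of 126 CPM came from the library that resembles the inner layers, and in layer 3 of Alachua the replicates had 0, 155 and 103 CPM, the 0 being in the library that resembles layer 1. Without the 2 libraries the bound was 44.7-fold (adjusted p = 0.65), and the call also failed when a single Supreme library was left out (highest adjusted p = 0.173). Likewise evm.model.chr20.90 had 22.3, 3.00 and 109 CPM in Alachua, with 109 CPM in that same library, and 0, 0 and 0.0202 CPM in Supreme. Its ratio was 6456 (1158 to 255040) with all libraries (adjusted p = 0.0126), and 1285 (230 to 50781) without the 2 libraries (adjusted p = 0.241). Its call failed as well without Alachua replicate 3 alone or any 1 Supreme library (adjusted p up to 0.0932).

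On the lower side, evm.model.chr5.936 had 0 counts in Alachua and 85.0, 0.875 and 0.606 CPM in Supreme, at least 1230-fold lower in Alachua (adjusted p = 0.030). In layer 1 of Supreme its replicates had 0.256, 77.5 and 51.9 CPM, so replicate 1 was high in layer 2 and low in layer 1. Without the 2 libraries the bound was 19.7-fold (adjusted p = 0.67), and the call failed when a single Alachua library was left out (highest adjusted p = 0.152). The same crossing was seen in evm.model.chr10.1903, which had 0 counts in Alachua layer 2, and 44.3, 3.39 and 2.79 CPM in layer 2 and 5.17, 59.2 and 44.2 CPM in layer 1 of Supreme. It was at least 715-fold lower in Alachua (adjusted p = 0.0062), and at least 82.0-fold lower without the 2 libraries (adjusted p = 0.0853). It was still called without Alachua replicate 3 alone (adjusted p = 0.037) and without Supreme replicate 1 alone (adjusted p = 0.0175). Whether these libraries exchanged places or hold mixed tissue was not tested.

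Leaving out the 2 libraries added 1 call, evm.model.chr18.189. It had 114, 94.4 and 155 CPM in Alachua and 180, 219 and 216 CPM in Supreme. With all libraries its log2 fold change was -0.76 (adjusted p = 0.030), which is under 2-fold, and without the 2 it was -1.08 (adjusted p = 0.0115).

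Of the 41, 40 were called in each of the 6 fits that left out 1 layer 2 library of either cultivar. The exception was evm.model.chr4.2350, called in 4 of the 6, at a mean of 53.4 CPM in Alachua and 0.401 CPM in Supreme. All 41 were called without the 6 libraries of Alachua and Supreme nearest another layer. Those 6 include the 2 whose omission defined the 41, so layer 2 was compared in the same libraries. That fit is no separate evidence. DESeq2 called all 41, but it also called all 175, so its calls do not set the 41 apart.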

How the data were processed

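The deposited values are whole-number read counts per gene model, in a separate file for each library. The submitters' processing notes list STAR, cutadapt, HTSeq 0.11.2, DESeq2 and SAMtools, with no role or order. Genome build, annotation and strand use in counting are not given in these sources, so overlapping genes and near-identical copies may share or lose reads. The 5 special counter lines were removed. Of 26394 gene models, 22565 had a count, and 0 matched the reference gene table, so identifiers stand without names, coordinates or sequences.

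CPM and folds were computed with edgeR 4.0.16 (TMM, filterByExpr by group) in R 4.3.3, with 12 group means fitted to all 36 libraries (19057538 to 61782400 counts; 24 residual degrees of freedom). Each adjusted p is from edgeR's quasi-likelihood F test, Benjamini-Hochberg adjusted over all gene models tested. SE is the absolute fitted log2 fold change divided by the square root of the F statistic. It is an approximation and can be very large where a group is at 0 counts. Filtering was repeated wherever libraries were left out. DESeq2 1.42.0 was an alternative. Folds against 0 counts use a floor of 3 counts over the group, and ratios against 1 to 3 counts have exact 95% intervals; both cover counting error only.

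Comparisons, layer sets, naming rules and alternatives were chosen with earlier results of these data known. Named gene models were, in each direction, at most 2 with the largest fold and 2 with the highest level, called with and without the 2 libraries, not overlapping and at 10 CPM or more in the higher group. The same limits named those called only with, or only without, the 2 libraries. On simulated counts for 18252 gene models in the layer 2 comparison, 25.4% of 67 changed 2-fold, 91.0% of 67 changed 4-fold and 100% of 66 changed 16-fold were recovered, with 5 false calls. The simulation gave all gene models a common dispersion and changed only those above a minimum count. It held no other differences between layers or cultivars and no library resembling another layer, so recovery in the real data may be lower.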

Additional observations from a re-analysis of the deposited data

How the results depend on the processing

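The count of 175 for Alachua against Supreme in layer 2 was 42 without Alachua replicate 3 and Supreme replicate 1, 82 without all 6 libraries nearest another layer, 79 (48 higher, 31 lower) in the 25 libraries with numbered names, 20 in the 6 libraries compared and 1123 with DESeq2 (400 higher, 723 lower). Leaving out 1 layer 2 library gave between 83 and 140, with 140, 83 and 89 without Alachua replicates 1, 2 and 3 and 91, 107 and 115 without Supreme replicates 1, 2 and 3. The direction with more calls turned among these fits: 81 were higher and 94 lower with all libraries, 25 and 17 without the 2, and 56 and 27 without Alachua replicate 2. The cause was not tested, beyond the fewer libraries in each of these fits. Other scaling, no filter on low counts, whether a library's name was numbered, as a covariate, and no fold minimum gave between 169 and 216. With the replicate number as a block, 149 were called; same-numbered Alachua and Supreme libraries of layer 2 deviated together with correlations of 0.144, -0.039 and 0.013, so the numbers were not taken to pair them.

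The difference of the cultivar contrast between layer 2 and the other layers gave 0 calls in each edgeR fit, the replicate block included, and 767 with DESeq2. For the gene models named, the fits of the layer 2 contrast held direction and call in 336, lost the call in 67, gained it in 2 and reversed in none. At 3 libraries a group, 2-fold changes were mostly below what the simulated test recovered, so gene models without a call are not shown to be alike in Alachua and Supreme.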
